A study of Homo sapiens with 6 samples.

Results

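The annexins are a family of proteins that bind phospholipid membranes when calcium rises, and 10 of their genes (ANXA1 to ANXA7, ANXA9, ANXA10 and ANXA11) were taken by symbol from a table of 39396 gene symbols. The table holds 6 RNA-seq libraries of the colorectal carcinoma line RKO, labelled wild type (WT): 3 libraries of cells treated with the PARP inhibitor olaparib and 3 of cells treated with the solvent DMSO, plated 24 h before treatment and grown in EMEM with fetal bovine serum. Dose and treatment time are not stated. The labels do not say whether replicates were separate cultures, and the p-values therefore describe the scatter of these 6 libraries, part of which may be technical.

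Each annexin has a conserved core of calcium-binding repeats that docks on phosphatidylserine and other acidic lipids, and an N-terminal tail that differs between members and binds partner proteins. Annexins bridge membranes, help to seal torn plasma membranes, and take part in endocytosis and secretion. ANXA1 is also known as a substrate of the epidermal growth factor receptor and as a ligand that dampens inflammation. ANXA2 forms a complex with S100A10 that binds plasminogen at the cell surface.

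The libraries held 28715138 to 42423785 counts. Of 17078 genes tested with edgeR's quasi-likelihood test, 75.7% were called at an adjusted p below 0.05, so a called difference was the usual case. Marker genes also differed between the groups. Of 10 genes typical of embryonic kidney and neuronal cells, 8 were tested and 7 were lower in olaparib. The summed level of the 10 ran from 269 to 473 CPM (counts relative to the scaled library size) in DMSO and from 32.1 to 33.7 CPM in olaparib. The other tested gene, NEFH, was higher in olaparib, at 12.55 against 1.161 CPM. Of the 7 lower genes, IRS4 had the largest DMSO level, at 0.0468 CPM in olaparib and 141.9 CPM in DMSO. NEFM came next, at 0.0118 and 57.7 CPM. LIN28B, NEFL, PAX2 and STMN2 were at 0 counts in olaparib, but STMN2 held only 6 counts in DMSO. Of 10 epithelial genes, 7 were tested and 6 were higher in olaparib, with sums of 1020 to 1290 CPM against 228 to 294 CPM. Most of both sums was KRT8 (580.7 against 175.1 CPM) and KRT18 (400.4 against 75.27 CPM). CDH1 was not called (0.808 against 0.9 CPM). KRT19 and ESRP1 were too low to be tested, and GRHL2 was at 0 counts in every library. Of 10 intestinal genes, 2 reached a mean of 1 CPM in olaparib and 1 did in DMSO. Only 3 were tested: HNF4A and MUC2 were higher in olaparib, at 9.69 against 0.121 CPM and 5.31 against 0.0237 CPM, and CDX2 was lower, at 0 against 24.5 CPM. CDX1 and FABP1 had no count in any library, and GPA33 had none in olaparib. Of 8 fibroblast genes 6 were tested, 1 higher and 4 lower, with sums of 103 to 136 CPM in olaparib and 94.0 to 102 CPM in DMSO, and COL1A2 and PDGFRA were at 0 counts in olaparib. Blood markers summed to 2.83 to 3.50 CPM in olaparib and 4.68 to 5.84 CPM in DMSO, with CD3E and HBB at 0 counts in every library, and of 3 tested 2 were lower. Endothelial markers summed to 23.0 to 24.7 CPM in olaparib and 1.33 to 1.69 CPM in DMSO, and most of the olaparib sum was CDH5 (20.5 against 0.128 CPM). Of 4 tested, CDH5 and PECAM1 were higher, KDR was lower and VWF was not called. Treatment and a difference in the cells themselves cannot be told apart in this design. The part of these marker differences in the annexin results was not tested, and directions below are between libraries as labelled. In bulk RNA, fewer cells of a type and less RNA per cell cannot be told apart.

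Annexin mRNA was more abundant and differently composed in the olaparib libraries. Of the 10 annexins, 8 were higher in olaparib, 1 was lower (ANXA6) and 1 was not called (ANXA9). Among all tested genes 35.4% were called higher and 40.3% lower. The largest rises were 16.3-fold for ANXA1, 13.5-fold for ANXA10 and 5.91-fold for ANXA3, while ANXA6 was 3.42-fold lower. All 10 annexins passed the filter on low counts. ANXA10 passed only through its olaparib libraries, with 6, 4 and 0 counts in DMSO, so its direction was largely set by the filter. It stays in every count and median of this paragraph. The median log2 fold change of the annexins was 0.92, against -0.09 for all tested genes. The median absolute log2 fold change was 1.22, against 0.94. The 3 olaparib libraries lay entirely above or below the 3 DMSO libraries for 9 of the 10 annexins, which was so for 79.4% of all tested genes. Of these annexins 8 lay above and 1 below, against 37.3% and 42% of all genes. A call with at least a 2-fold difference was reached by 6 annexins and by 47% of all genes. Together the 10 genes took 0.192 to 0.233% of all counts in the olaparib libraries and 0.104 to 0.112% in DMSO.

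**Figure D1:**
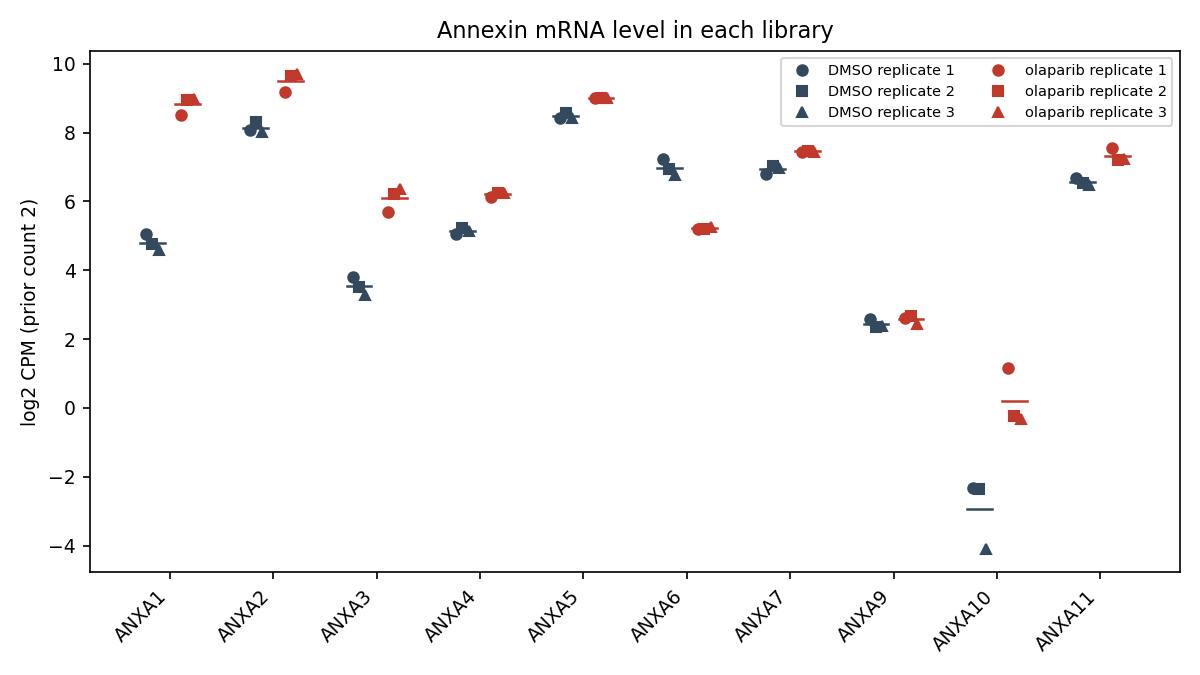
Level of each annexin in each library, as log2 CPM with a prior count of 2 (vertical axis); markers are replicates, horizontal lines are group means over 3 libraries, red is olaparib and dark blue is DMSO. The groups are separate for every annexin except ANXA9, and ANXA6 is the only one with olaparib below DMSO.

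ANXA1, whose N-terminal tail is bound by S100A11, stood at 366, 496 and 504 CPM in the olaparib libraries and at 32.9, 26.9 and 23.8 CPM in DMSO. Every olaparib library lay above every DMSO library, and olaparib replicate 1 was the lowest of its group. The means were 455 ± 77.2 CPM and 27.9 ± 4.61 CPM (SD, n = 3), a log2 fold change of 4.03 ± 0.17 (SE, adjusted p = 1.32e-09). Of all tested genes, 10.6% differed by at least as much in either direction. The gene lies on chromosome 9 from 73151757 to 73170393 on the plus strand (hg38, GENCODE release 29).

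ANXA10, an annexin best known from gastric epithelium, was rare in all libraries. Its rise and that of ANXA1 have no fixed order: the log2 fold change of ANXA10 was the larger under 5 of 13 alternatives, limma-voom among them (4.12 against 4.03). It held 62, 24 and 21 counts in olaparib and 6, 4 and 0 counts in DMSO, or 2.16, 0.784 and 0.743 CPM against 0.142, 0.135 and 0 CPM. Olaparib replicate 1 stood highest, and the groups did not overlap. The fitted log2 fold change was 3.75 ± 0.75 (SE, adjusted p = 0.00064). The plain count ratio, scaled for library size, was 14.2 with a 95% counting interval of 7.42 to 30.4, which covers counting error only. It depended on single libraries for its size: the log2 fold change was 3.07 without olaparib replicate 1, 3.09 without DMSO replicate 3 and 4.34 without DMSO replicate 1, and the call held in each case. ANXA10 lies on chromosome 4 from 168092515 to 168187690.

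ANXA3, which is abundant in neutrophils and raised in several carcinomas, followed with 51.8, 73.8 and 81.7 CPM in olaparib and 14.0, 11.3 and 9.70 CPM in DMSO. The lowest olaparib library, replicate 1, was still above all DMSO libraries. Its log2 fold change was 2.56 ± 0.18 (SE, adjusted p = 1.02e-07), with means of 69.1 ± 15.5 CPM and 11.7 ± 2.19 CPM (SD, n = 3). ANXA3 lies on chromosome 4 from 78551519 to 78610451.

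ANXA2, the heavy chain of the plasminogen-binding complex with S100A10, stood at 573, 801 and 824 CPM in olaparib and at 272, 314 and 259 CPM in DMSO. The groups did not overlap, and replicate 1 was again the lowest of the olaparib libraries. It was 2.60-fold higher, a log2 fold change of 1.38 ± 0.15 (SE, adjusted p = 3.95e-06). The gene lies on chromosome 15 from 60347134 to 60402883 on the minus strand. ANXA2 has processed copies elsewhere in the genome whose reads cannot be fully separated from its own. The copy ANXA2P2 was 14.0-fold higher, at 17.1 ± 5.05 CPM against 1.22 ± 0.128 CPM (SD, n = 3, adjusted p = 6.6e-08). Its counts amounted to 1.99, 2.63 and 2.28% of those of ANXA2 in olaparib and to 0.402, 0.429 and 0.471% in DMSO. ANXA2P1, with 48 olaparib and 10 DMSO counts, was too low to be tested, and ANXA2P3 had no count. The summed CPM of ANXA2 and its copies was 2.65-fold higher by the ratio of group means, close to the fitted 2.60-fold of ANXA2 alone.

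The regulatory letters before these genes differ widely. The 250 bases before the RefSeq start of the members with the largest rises (ANXA1, ANXA10), of ANXA2 and of the only member that was lower (ANXA6) are given here 5′ to 3′ on the strand of the gene, from RefSeq on GRCh38.p14, which shares its coordinates with hg38. Capitals mark TATAAA, the core of the TATA box, and TGANTCA, the core of the AP-1 site.
ANXA1, chr9:73151615-73151864, plus strand: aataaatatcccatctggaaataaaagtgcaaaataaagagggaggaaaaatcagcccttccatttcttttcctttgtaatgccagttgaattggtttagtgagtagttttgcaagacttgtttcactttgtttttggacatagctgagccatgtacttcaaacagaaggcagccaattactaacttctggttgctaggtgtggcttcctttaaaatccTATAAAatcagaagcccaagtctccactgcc
ANXA10, chr4:168092287-168092536, plus strand: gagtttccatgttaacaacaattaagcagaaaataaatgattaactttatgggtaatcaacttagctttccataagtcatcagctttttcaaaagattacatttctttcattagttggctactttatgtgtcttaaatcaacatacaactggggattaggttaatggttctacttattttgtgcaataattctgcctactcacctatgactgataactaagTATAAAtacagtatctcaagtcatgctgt
ANXA2, chr15:60397987-60398236, minus strand: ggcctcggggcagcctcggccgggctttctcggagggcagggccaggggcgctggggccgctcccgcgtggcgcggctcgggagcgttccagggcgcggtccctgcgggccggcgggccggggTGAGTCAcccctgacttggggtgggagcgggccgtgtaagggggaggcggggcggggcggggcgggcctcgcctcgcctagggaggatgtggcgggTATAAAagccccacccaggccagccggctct
ANXA6, chr5:151157780-151158029, minus strand: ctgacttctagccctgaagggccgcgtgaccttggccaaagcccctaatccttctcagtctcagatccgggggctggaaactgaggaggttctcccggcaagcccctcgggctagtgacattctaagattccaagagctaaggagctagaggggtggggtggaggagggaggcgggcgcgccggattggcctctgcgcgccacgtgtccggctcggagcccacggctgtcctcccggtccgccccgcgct

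All 10 annexins matched the RefSeq promoter table, with 14 windows, since ANXA4, ANXA6 and ANXA11 have more than 1 start. TATAAA (searched on both strands, also as TTTATA) was present before ANXA1 and ANXA2, 31 bases before the start, before ANXA10, 29 bases before it, and in 1 of the windows of ANXA11, 61 bases before it. It occurs in 10.7% of 35116 windows of the same length. TGANTCA, which reads the same on both strands and did not overlap TATAAA here, was found before ANXA2 alone, 127 bases before the start, and occurs in 6.57% of windows. The windows of ANXA1 and ANXA10 held no CpG dinucleotide, with 38.4% and 31.2% G and C, whereas that of ANXA2 held 28 and the ANXA6 window shown held 19. The other ANXA6 window held 10. ANXA3, the next largest rise after ANXA1 and ANXA10, had 18, with 64.0% G and C and no TATAAA. The median over all windows was 11, with quartiles of 3 and 23. ANXA9, the member without a call, had 4. These are letters in a window, and no binding or methylation was measured.

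ANXA6, the only annexin with a doubled core, which recruits the Ras GTPase-activating protein RASA1 to membranes, was the only one lower in olaparib. It stood at 36.9, 36.5 and 38.2 CPM in olaparib and at 151, 123 and 108 CPM in DMSO. The olaparib libraries lay close together, and the DMSO libraries spread more widely but were all higher. The log2 fold change was -1.78 ± 0.13 (SE, adjusted p = 9.37e-08), from means of 37.2 ± 0.904 CPM and 127 ± 21.9 CPM (SD, n = 3). ANXA6 lies on chromosome 5 from 151100712 to 151157882. RASA1 was 1.62-fold higher in olaparib, at 44.1 ± 2.54 CPM against 27.2 ± 2.62 CPM (SD, n = 3, adjusted p = 0.00012).

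The other annexins moved less. ANXA4, found in secretory epithelia, stood at 69.5, 75.7 and 76.1 CPM in olaparib and at 32.8, 37.3 and 35.4 CPM in DMSO, a log2 fold change of 1.07 ± 0.10 (SE, adjusted p = 1.09e-06). ANXA11, which links RNA granules to lysosomes through a long disordered tail, stood at 188, 147 and 150.1 CPM against 103, 93.5 and 88.4 CPM, a log2 fold change of 0.77 ± 0.12 (SE, adjusted p = 7.26e-05). In ANXA11 olaparib replicate 1 was the highest library, the reverse of its place in ANXA1, ANXA2 and ANXA3. ANXA5, the annexin used as a probe for exposed phosphatidylserine, stood at 511, 516 and 516 CPM against 345, 378 and 344 CPM, and was 1.45-fold higher (adjusted p = 0.000465). ANXA7, the tail of which binds the calcium proteins sorcin and PDCD6, stood at 174, 177 and 173 CPM against 112, 131 and 124 CPM, and was 1.43-fold higher (adjusted p = 0.000408). In these 4 genes the groups did not overlap, although 68.9% of all tested genes differed by at least as much as ANXA5 and 69.9% by as much as ANXA7. ANXA9, a member whose calcium-binding sites are degenerate, stood at 6.11, 6.30 and 5.31 CPM in olaparib and at 5.94, 5.06 and 5.18 CPM in DMSO. Its groups overlapped, and the log2 fold change of 0.13 ± 0.19 (SE, adjusted p = 0.545) did not exceed the spread between replicates. ANXA4 overlaps AAK1 on the other strand without shared exon bases, and ANXA7 shares 105 exon bases with an antisense RNA; whether the counting used strand is not known.

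**Figure D2:**
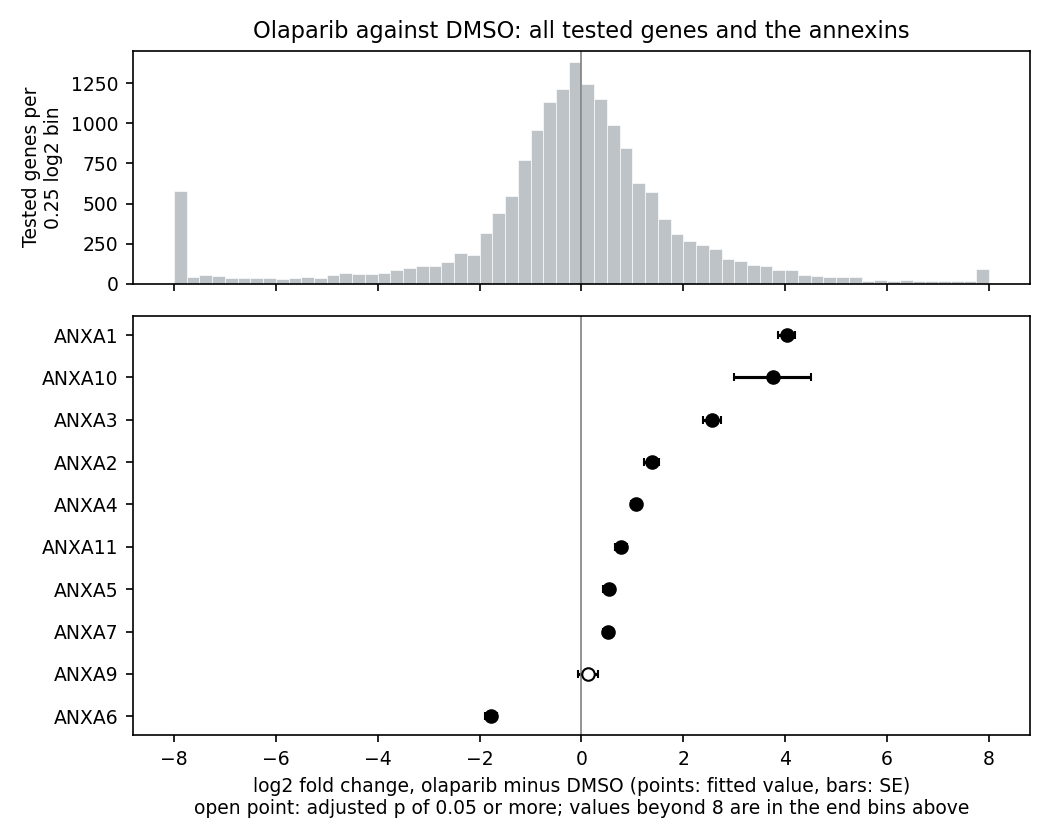
Upper panel, number of tested genes per bin of 0.25 in log2 fold change (olaparib minus DMSO), with values beyond 8 in the end bins; lower panel, the fitted log2 fold change of each annexin with its SE, filled where called. The annexins run from -1.78 (ANXA6) to 4.03 (ANXA1), and ANXA10 has the widest error.

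Annexins can be compared with each other only per length. The level per kilobase used here is CPM divided by the length of the principal transcript in GENCODE (the median where several have that tag). On this scale ANXA2 was the most abundant in olaparib at 507 ± 96.2 CPM per kb, followed by ANXA5 at 292 ± 1.59 and ANXA1 at 245 ± 41.5 (SD, n = 3). In DMSO, ANXA5 and ANXA2 led with 202 ± 11 and 195 ± 20 CPM per kb, which overlapped, and ANXA7 came next with 56.3 ± 4.51. ANXA1, at 15.0 ± 2.48 CPM per kb in DMSO, overlapped ANXA11 at 14.1 ± 1.07, and ANXA11 in turn overlapped ANXA4 at 12.6 ± 0.807. ANXA6 stood just below ANXA7 in DMSO at 49.1 ± 8.43 CPM per kb, where they overlapped, and below ANXA11 in olaparib at 14.3 ± 0.349.

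Lower in the olaparib order came ANXA7 at 80.4 ± 1.10 CPM per kb, ANXA3 at 41.7 ± 9.35, and ANXA4 at 26.3 ± 1.32, which overlapped ANXA11 at 24.0 ± 3.39. In DMSO, ANXA3 was at 7.05 ± 1.32 CPM per kb. ANXA9 and ANXA10 were the lowest in both groups, ANXA9 at 3.23 ± 0.289 and 2.95 ± 0.261 CPM per kb and ANXA10 at 0.868 ± 0.570 and 0.0652 ± 0.0565 in olaparib and DMSO. The principal transcripts of ANXA1 run from 1509 to 2209 bases and those of ANXA11 from 2534 to 6965 bases, so the places of these members in the order depend on which transcripts the cells use. As a share of the summed level per kilobase, ANXA1 went from 2.45 to 3.22% in the DMSO libraries to 18.5 to 20.4% in olaparib. ANXA5 went the other way, from 35.6 to 37.5% in DMSO to 22.0 to 27.2% in olaparib, although its own level was higher, and ANXA6 took 8.0 to 10.6% in DMSO and 1.08 to 1.33% in olaparib.

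**Figure D3:**
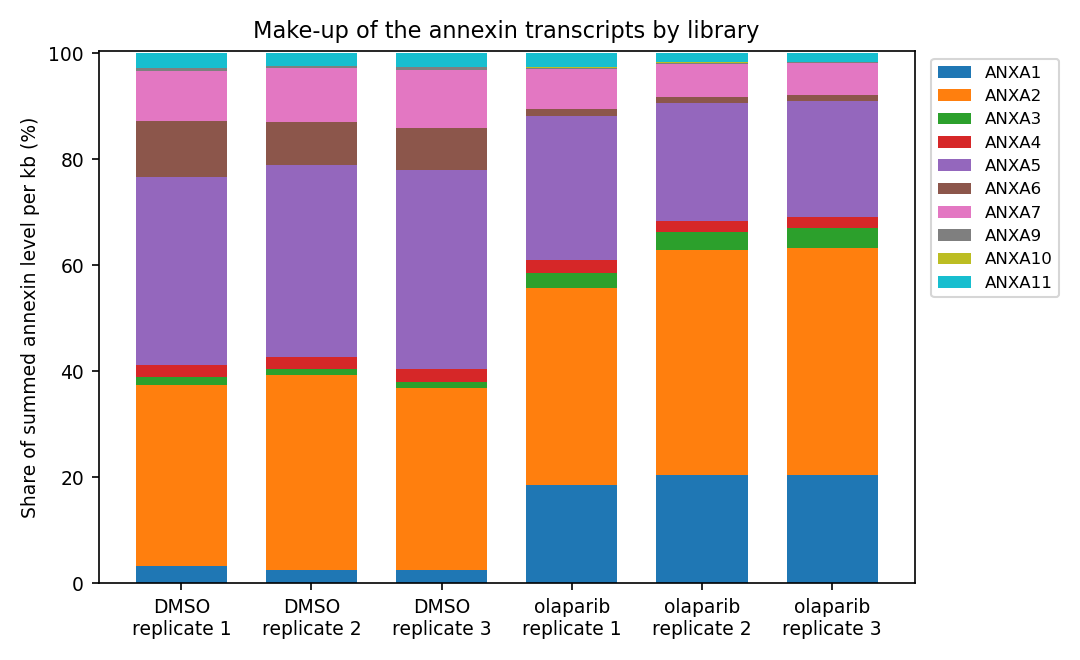
Share of each annexin in the summed annexin level per kilobase (vertical axis, percent) in each of the 6 libraries. ANXA1 takes 18.5 to 20.4% in olaparib and 2.45 to 3.22% in DMSO, while the ANXA6 band shrinks in olaparib.

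Partners of annexins were mostly higher in olaparib, S100A10 and SRI excepted. Of 8 binding partners, 6 were higher, 1 was lower and 1 was not called, with a median log2 fold change of 1.39. Among all tested genes 35.4% were higher and 40.3% lower, with a median of -0.09. S100A6, a calcium protein that binds ANXA2 and ANXA11, was 4.93-fold higher at 414 ± 28.8 CPM against 84.0 ± 19.99 CPM (SD, n = 3, adjusted p = 6.54e-08). S100A11, the partner of ANXA1, was 2.50-fold higher (adjusted p = 2.15e-07), S100A4 2.74-fold (adjusted p = 2.56e-07) and PDCD6, a calcium protein that binds ANXA7 and ANXA11, 3.54-fold (adjusted p = 4.33e-08). S100A10 stood at 81.9 ± 13.9 CPM in olaparib and 84.8 ± 14.1 CPM in DMSO (SD, n = 3), a log2 fold change of -0.05 ± 0.15 (SE, adjusted p = 0.767), whereas ANXA2 was 2.60-fold higher in the same libraries. The sign of S100A10 turned without olaparib replicate 1 (0.08) and without DMSO replicate 1 (0.04). AHNAK, a giant scaffold that binds the ANXA2 and S100A10 complex, was 4.42-fold higher (adjusted p = 0.000157), and SRI, which encodes sorcin, was 1.72-fold lower (adjusted p = 1.54e-05). S100A10, AHNAK, SRI and RASA1 were named after their values were seen. The S100A genes of the list all lie on chromosome 1 within 5 Mb of ANXA9. The tested S100A genes there outside the list were also called higher, and were named after their values were seen. Their log2 fold changes were 0.93 (S100A1), 1.79 (S100A13), 2.74 (S100A2), 2.95 (S100A14), 3.23 (S100A3) and 3.83 (S100A16). Whether the rise is particular to annexin partners was not tested.

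Genes of plasma membrane repair, in which annexins form a cap at the wound, moved both ways. Of 18 genes 9 were higher, 7 lower and 2 not called, with a median log2 fold change of 0.31. The shares over all tested genes were 35.4% higher and 40.3% lower. The ferlins DYSF (dysferlin) and MYOF (myoferlin), which bind membranes through C2 domains, were 16.0-fold and 8.03-fold higher. DYSF stood at 30.6 ± 1.45 CPM against 1.89 ± 0.305 CPM and MYOF at 662 ± 148 CPM against 82.5 ± 13.9 CPM (SD, n = 3, adjusted p = 1.27e-09 and 2.81e-08). EHD2, an ATPase of caveolar necks, was 2.70-fold higher (adjusted p = 1.2e-07). TRIM72, a repair protein best known from muscle and named after its value was seen, was lower, with 9 olaparib and 210 DMSO counts, which is 17.6-fold per count total (95% counting interval 9.10 to 39.0). The calls of 2 genes of the list that were lower, CHMP2A and PDCD6IP, named after their values were seen, were lost without some libraries. The adjusted p of CHMP2A reached 0.12 without DMSO replicate 2, 0.0743, 0.0809 and 0.11 without olaparib replicates 1, 2 and 3, and that of PDCD6IP 0.0595 and 0.0847 without olaparib replicates 2 and 3.

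The plasminogen system, which ANXA2 serves as a surface receptor, was split. Of 8 genes in the list, which also holds the formyl peptide receptors, 4 were tested, 2 higher and 2 lower, with a median log2 fold change of 0.14. Over all tested genes 35.4% were called higher and 40.3% lower. PLAU (urokinase) was 8.96-fold higher at 13.9 ± 0.954 CPM against 1.57 ± 0.415 CPM, and its receptor PLAUR 2.42-fold higher (SD, n = 3, adjusted p = 8.12e-08 and 4.1e-05). The plasminogen receptor PLGRKT was 3.92-fold lower (adjusted p = 6.76e-06) and the activator PLAT 2.0-fold lower (adjusted p = 0.00271). Plasminogen itself (PLG) held 4 counts in olaparib and 0 in DMSO. FPR1, FPR2 and FPR3, the family to which the ANXA1 receptors belong, had no count in any library, which allows up to 0.0343 CPM in olaparib and 0.0259 CPM in DMSO over each group's 3 libraries.

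Genes that control the lipids annexins bind were also split. Of 11 genes that flip or scramble phosphatidylserine, 9 were tested, 3 higher, 2 lower and 4 not called, with a median log2 fold change of 0.28. Calls over all tested genes were 35.4% higher and 40.3% lower. The calcium-activated scramblase ANO6 was 2.47-fold higher (adjusted p = 3.3e-06) and PLSCR4 2.84-fold (adjusted p = 1.47e-05), while XKR8, the scramblase cut by caspases, was 4.94-fold lower at 6.96 ± 0.348 CPM against 34.4 ± 3.65 CPM (SD, n = 3, adjusted p = 2e-08) and the flippase ATP8A1 6.33-fold lower (adjusted p = 7.33e-07). XKR4 had no count in olaparib and 16 in DMSO and was not tested. The other gene that was higher, the flippase ATP8B1, was called at adjusted p = 0.0288 and was named after its value was seen. ATP8B1 lost that call without olaparib replicate 2 or 3 (adjusted p = 0.0552 and 0.11). The call was also lost without DMSO replicate 2 or 3 (0.0985 and 0.0687) and with library size alone (0.0531). The uncalled flippases ATP11A (adjusted p = 0.0549) and ATP11B (adjusted p = 0.0507), named after their values were seen, were called higher under 8 and 6 of 14 alternatives. The number of genes of the list called higher thus ran from 2 to 5, with 5 under DESeq2, RLE size factors, the 1 CPM filter and halved counts.

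PLA2G4A, the cytosolic phospholipase A2 that ANXA1 is known to inhibit, stood at 174 ± 48.9 CPM in olaparib and 15.1 ± 3.53 CPM in DMSO (SD, n = 3), an 11.5-fold difference (adjusted p = 3.35e-08). Of the 6 genes of that family 3 were tested. PLA2G4B was also higher, 3.80-fold (adjusted p = 0.00105), and PLA2G4C was not called (log2 fold change 0.39, adjusted p = 0.065), with a median of 1.93. The olaparib libraries of PLA2G4C all lay above those of DMSO. It was called higher under DESeq2 (0.403, adjusted p = 0.0476) and stayed uncalled under 13 of 14 alternatives. PLA2G4E held 0 counts in olaparib and 0, 6 and 4 in the DMSO libraries, which overlap, and PLA2G4F held 2 counts in olaparib and 0 in DMSO. Neither was tested. The copines, another family that binds phospholipid when calcium rises, had 5 of 9 genes tested, 2 higher, 1 lower and 2 not called, with a median log2 fold change of -0.09. CPNE7 was 22.9-fold higher at 321 ± 33.1 CPM against 14.0 ± 0.857 CPM (SD, n = 3, adjusted p = 9.17e-11), CPNE8 1.88-fold higher (adjusted p = 3.1e-05) and CPNE3 1.67-fold lower (adjusted p = 0.000519). CPNE1 was not called (log2 fold change -0.15, adjusted p = 0.451) but was lower without DMSO replicate 1 (-0.37, adjusted p = 0.00544). CPNE4 had no count in olaparib and 31 in DMSO and was not tested. As a background for these lists, 75.7% of all tested genes were called, 35.4% higher and 40.3% lower, and the median log2 fold change was -0.09.

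**Figure D4:**
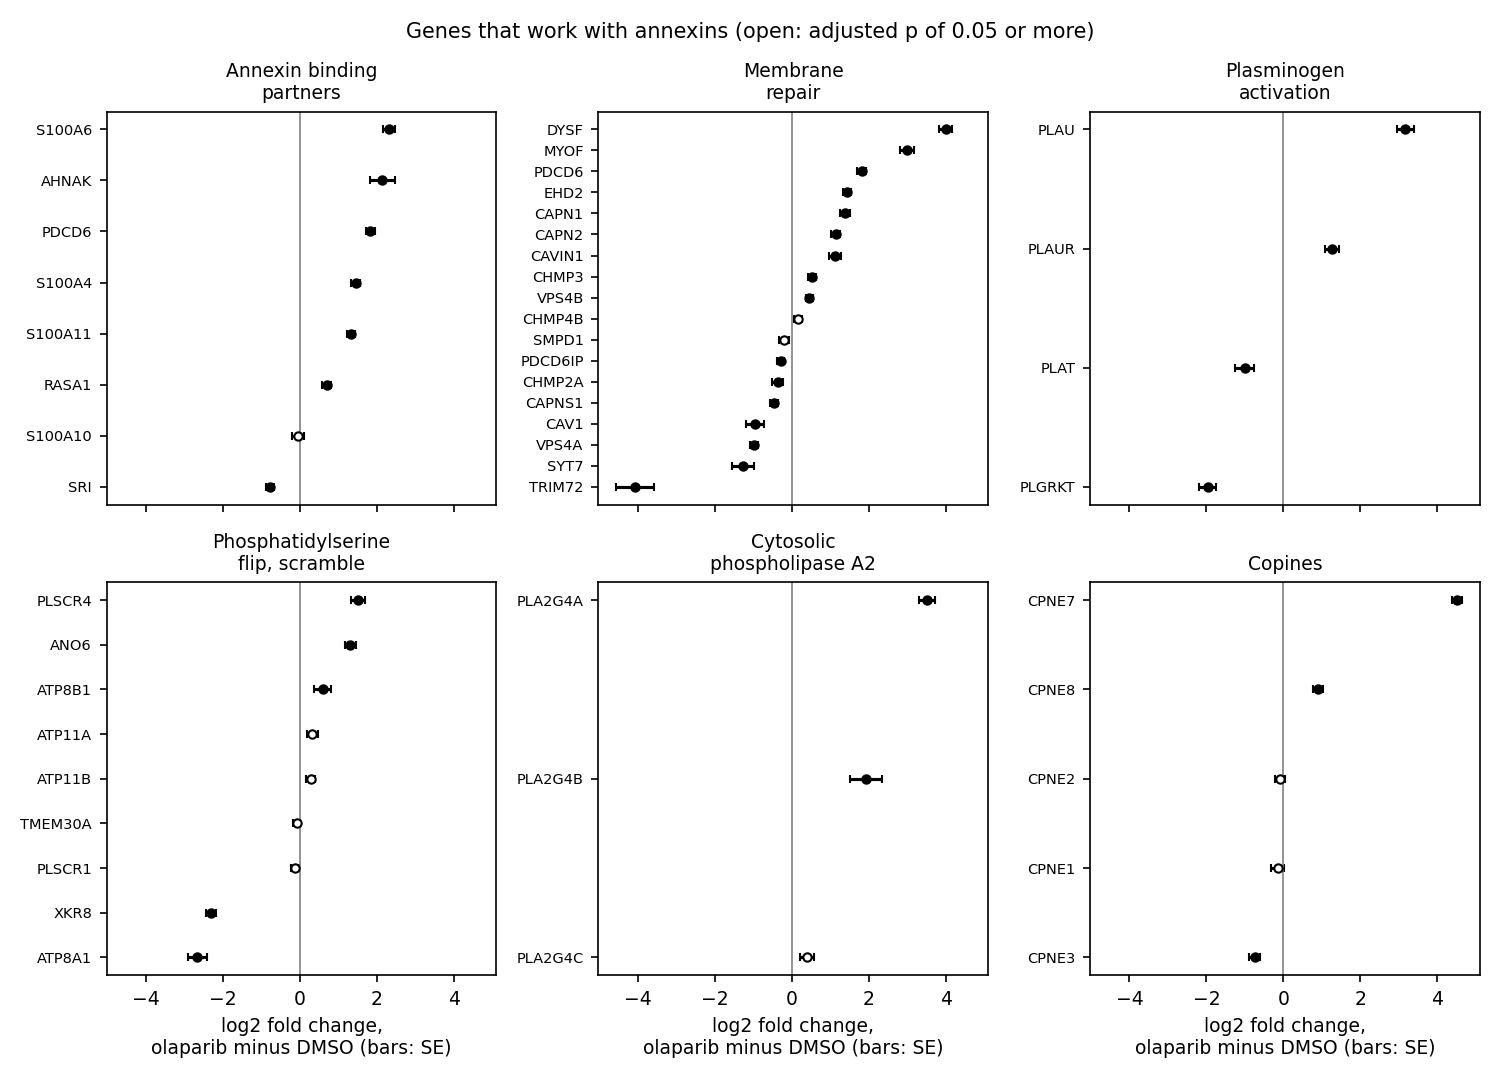
Fitted log2 fold change (olaparib minus DMSO) with SE for the tested genes of 6 lists of genes that act with annexins or bind the same lipids; filled points are called. S100A10 lies near 0 among the binding partners, while DYSF and TRIM72 are at opposite ends of the repair list.

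Genes around the annexins were compared because neighbouring genes can move together. Within 5 Mb on either side, 27 of 29 tested protein-coding neighbours of ANXA1 had a lower log2 fold change than ANXA1, and their median was 0.25. For ANXA3 this was so for 51 of 53 (median -0.02) and for ANXA10 for 20 of 20 (median -0.09). Among all tested genes, 96.8% lay below ANXA1, 92.2% below ANXA3 and 96.2% below ANXA10, so these counts are near the background. Closer in, within 1 Mb, all 3 tested neighbours of ANXA1 were higher, with log2 fold changes of 7.10 for TMC1, 5.35 for GDA and 1.27 for ZFAND5, and 3 of 4 neighbours of ANXA10 were higher, DDX60L by 3.61, DDX60 by 2.28 and PALLD by 1.34. These neighbours were named after their values were seen. ANXA7, on chromosome 10 from 73375101 to 73414076, had a log2 fold change of 0.51 in a region with a median of 0.52 over 71 neighbours, of which 40 were higher and 13 lower. ANXA2 lay at 1.38 among 63 neighbours with a median of 0.72, of which 39 were higher. Of the neighbours of ANXA6 within 1 Mb, 14 of 20 were lower, with a median of -0.88 against -0.43 for 56 neighbours within 5 Mb and 0.17 for 120 within 10 Mb. Beside these counts of called neighbours, 35.4% of all tested genes were called higher and 40.3% lower. No test compared an annexin with its region.

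**Figure D5:**
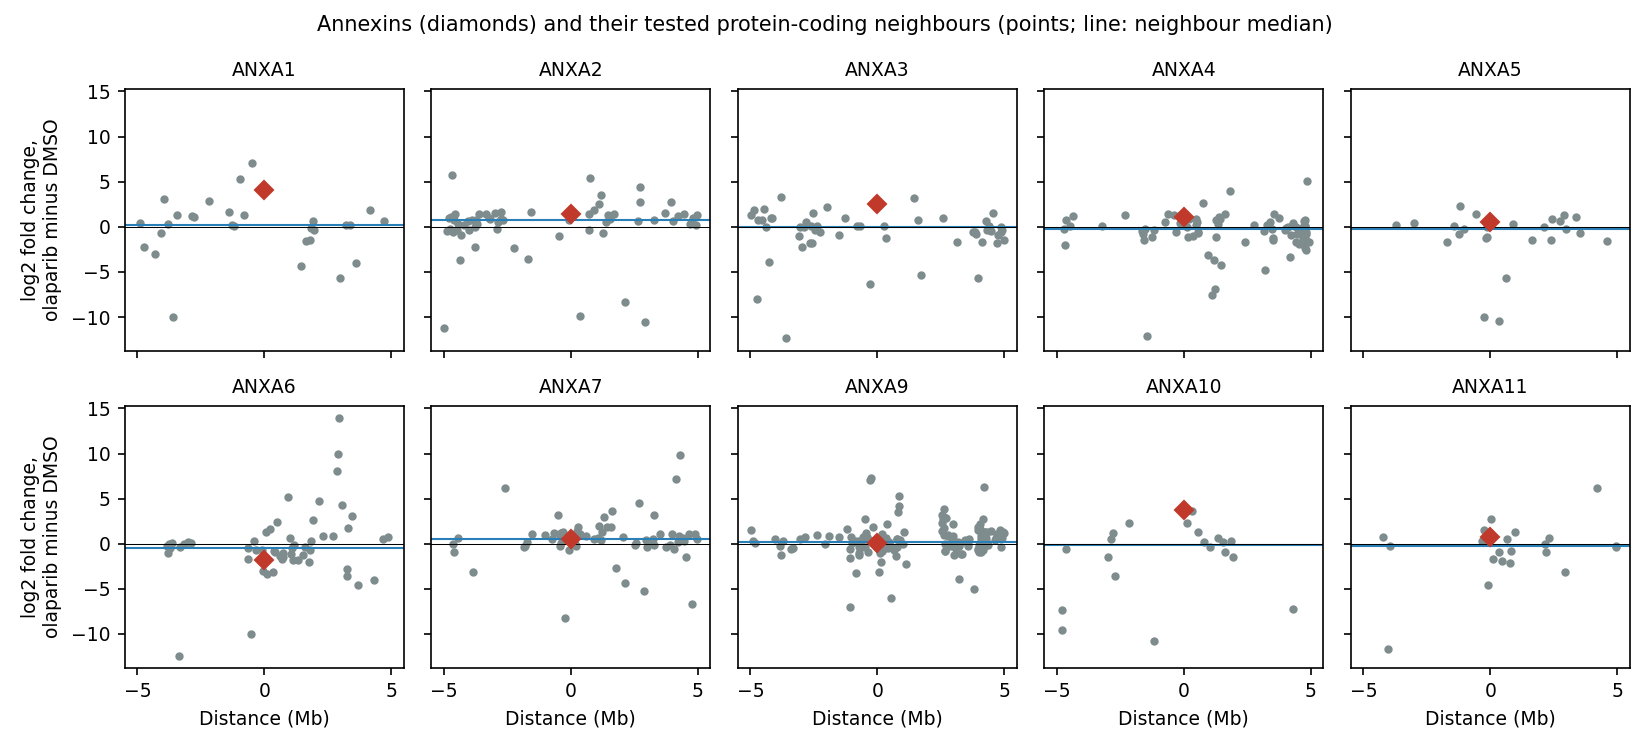
Log2 fold change (olaparib minus DMSO) of each annexin (red diamond) and of its tested protein-coding neighbours (grey points) against distance from the annexin's midpoint in Mb, downstream to the right; the blue line is the neighbour median. ANXA7 sits on its neighbours' median of 0.52, while ANXA1, ANXA3 and ANXA10 lie above theirs.

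The genes nearest in pattern to ANXA1, by Euclidean distance of log2 CPM over the 6 libraries, were JADE2 (distance 0.71), OSMR (1.06) and LAMB3 (1.2), with log2 fold changes of 3.91, 3.30 and 3.95. The nearest to ANXA6 were IDH3B (0.19), HDHD5 (0.22) and UBE2N (0.23), with -1.71, -1.79 and -1.66. The distance follows mainly the level and the difference between the groups.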

How the data were processed

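RNA from 6 RKO libraries was sequenced, and the authors deposited raw read counts per gene symbol. Tools listed in the submitters' processing notes are fastp and STAR, with hg38 as the build. Counting program, annotation and strand setting: not given in the sources used here. Genes at 2 counts outnumbered genes at 1 count in all 6 libraries, so a fragment may have been counted for each of its reads, and counting intervals may be too narrow. Groups and replicate numbers came from the titles.

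The test was edgeR's quasi-likelihood test (edgeR 4.0.16, R 4.3.3) after filterByExpr and TMM, with a robust fit and group as the only term, with Benjamini-Hochberg adjustment over 17078 genes, called at 0.05. The script was tested on simulated data in which only a small set of genes was changed. That test does not cover normalization where most genes are called, as here. CPM are relative to the TMM-scaled library size, and SEs come from the F statistic. Replicates of 1 group were farther apart than counting noise allows (chi-square per degree of freedom 4.74 to 68.6 over genes with at least 20 counts), so no library was taken as a repeat deposit of another; this does not show that they were separate cultures. Positions and lengths came from GENCODE release 29, which holds 93.7% of the symbols.

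The named genes were the 10 members, other rows named ANXA, up to 4 genes per list with the smallest adjusted p, list genes with no count in 1 group, and the 3 genes nearest in pattern to the largest rise and fall. The members, lists and rules were chosen with earlier results of these data known. From the lists, 2 genes are not reported here and enter no list count or median. Alternatives were DESeq2 1.42.0, limma-voom (limma 3.58.1), RLE size factors, library size alone, 2 other filters, a replicate block and the loss of each library. Division of counts by 2 was added after seeing the data.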

Additional observations from a re-analysis of the deposited data

How the results depend on the processing

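Under the 14 alternatives run, 8 annexins were higher and 1 was lower, except that 7 were higher with a filter of at least 1 CPM in at least 3 libraries, which left ANXA10 untested. No annexin lost its call or turned direction. Without each library in turn the log2 fold change of ANXA1 ran from 3.91 to 4.16, of ANXA3 from 2.43 to 2.73, of ANXA2 from 1.31 to 1.53 and of ANXA6 from -1.90 to -1.64. The highest adjusted p of a called annexin under any alternative was 0.00465, for ANXA10, and ANXA9 stayed uncalled with 0.391 to 0.774. The counts of all genes called higher and lower stayed within 1.5 times. Same-numbered libraries of the groups did not deviate together (r = -0.18, -0.13 and -0.01), and unlike numbers gave r from -0.11 to 0.18. Deviations were taken from the mean of only 3 libraries per group, so these values cannot decide whether the number marks a shared culture or day. With the replicate block 5797 genes were higher and 6629 lower, and 8 annexins were higher and 1 lower. Of 50 other genes followed, 41 kept direction and call throughout. The uncalled S100A10 ran from -0.192 to 0.083 without each library in turn, positive without olaparib replicate 1 (0.083) and DMSO replicate 1 (0.044). The block ended the call of PDCD6IP (adjusted p = 0.0505) and added that of ATP11A (0.0466). With limma-voom the call of CHMP2A was lost (adjusted p = 0.06). Of the copines, 2 were lower without DMSO replicate 1. The causes were not tested. Depth limits ANXA10, with 10 counts over the DMSO libraries, most.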

Other observations

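Other annexin rows of the table, outside the 10 genes of the report, were mostly higher in olaparib. ANXA8 stood at 54.9 ± 7.67 CPM in olaparib and 8.84 ± 1.05 CPM in DMSO, and ANXA8L1 at 21.7 ± 3.67 CPM and 5.18 ± 1.27 CPM (SD, n = 3). They were 6.22-fold and 4.18-fold higher (edgeR, adjusted p = 1.11e-08 and 1.61e-06). These genes are near-identical copies, so how reads were divided between them is uncertain. ANXA2R, a proposed ANXA2 receptor and not an annexin, was 8.68-fold higher, at 20.4 ± 1.65 CPM against 2.40 ± 1.16 CPM (SD, n = 3, adjusted p = 5.35e-07). ANXA13, the annexin of intestinal epithelium, had no count in olaparib and 4, 4 and 0 counts in the DMSO libraries, which overlap, and was not tested.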
